A study of Mus musculus with 113 samples.

Results

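The comparison covers 32 individually sequenced mouse cells, 16 of differentiation stage 2 and 16 of stage 3, chosen by the labels of their libraries out of 64 single cells and 113 samples in all. All 32 came from R1 embryonic stem cells, an established mouse line, differentiated as SFEB, a serum-free floating culture of aggregates like embryoid bodies, in GKSR medium. No gene was altered and no compound was named for these cells, and in their labels only the hours of neural induction differ. Any difference of culture or library preparation between times could not be told apart from time. Stage 2 holds 8 cells taken at 38 h and 8 taken at 60 h, and stage 3 holds 8 cells of 84 h and 8 of 106 h. Cells were picked by hand, and the samples used here do not say that any time point was cultured more than once. The 8 cells of a time point were therefore treated as 1 sample, and cells were not used as replicates. An exact permutation test of 2 time points against 2 cannot give a two-sided p below 0.333, so no p-value is given.

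Mouse embryonic stem cells deprived of serum leave the pluripotent state step by step, first resembling the epiblast and then the neuroectoderm. *Pou5f1*, *Utf1* and the *Dppa* genes are known for the pluripotent cell, *Dnmt3a*, *Dnmt3b* and *Otx2* for the epiblast, and *Sox1* is the classical early gene of the neural plate. Keratins 8 and 18 pair into the intermediate filaments of simple epithelia, and *Krt8* and *Krt18* are used as markers of early ectoderm.

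Values are log10(RPKM + 1), where RPKM is the number of reads scaled to transcript length and to the reads of the library, and a difference is the mean of the 16 stage 3 cells minus the mean of the 16 stage 2 cells on that scale. A gene was called higher or lower where the difference was at least 0.5, which is 3.16 in ratio on RPKM + 1, and where the means of both stage 3 time points lay beyond both stage 2 means. This is a rule of size and not a test. Of 11449 genes, 209 (1.83%) were higher and 300 (2.62%) were lower in stage 3 cells, and the median difference over all genes was 0.00. The higher genes included the small GTPase gene *Rhog*, 12 of 77 cytosolic ribosomal protein genes and the signalling genes *Wnt8a* and *Id3*. The lower genes included 7 of 17 general pluripotency genes, 10 of 30 genes of DNA replication and the G1/S boundary, and 5 of 20 epiblast genes. No called gene had all 16 stage 3 cells beyond all 16 stage 2 cells. The counts depended on the setting: averaging RPKM before the logarithm gave 991 higher and 583 lower genes, so that the larger group changed sides, and leaving out the 84 h cells gave 589 and 630, the 38 h cells 342 and 517 and the 106 h cells 334 and 338. Averaging RPKM first also took 15 of the 41 lower and 2 of the 35 higher genes named by rule below the size of 0.5.

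The number of genes above 0 differed between time points. It ran from 6942 to 9474 in the 38 h cells, from 8422 to 10292 at 60 h, from 8240 to 9067 at 84 h and from 6536 to 8335 at 106 h. The number above 0.5 RPKM was nearly fixed, at 5095 to 5192 in all 32 cells. The authors' quantile normalization gives all cells nearly the same distribution of values, so this number cannot show depth. Cells of 106 h had the fewest genes above 0, and a count of cells above 0 is given below with the count above 0.5 RPKM. No pair of the 32 cells was close to identical, the highest Pearson correlation across genes being 0.73. Called genes differed from the rest in sequence: over the longest coding transcript, the median GC content was 47.7% for the higher genes, 53.8% for the lower genes and 50.9% over all genes, and the median lengths were 1647, 2367 and 2920 bases. The part of base composition and length in the calls was examined by centring the time point means within bins of both, which left 154 genes higher and 280 lower, of which 132 and 254 were among the genes called above.

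*Sox1*, *Krt8* and *Krt18*, taken as markers of stage 3, overlapped between the stages in the cells, and none of them was called. *Sox1* was at 0.00 in the lowest, 0.00 in the median and 0.63 in the highest of the 16 stage 2 cells, and at 0.00, 0.08 and 1.84 in stage 3 cells. The groups overlapped, and the higher *Sox1* values belonged to 106 h: the time point means were 0.09, 0.00, 0.09 and 0.87 at 38, 60, 84 and 106 h. The *Sox1* difference was 0.43, below the size rule, and the mean at 84 h was also not above that at 38 h. *Sox1* was above 0 in 7 of 16 stage 2 cells, a share of 43.8% with an exact Clopper-Pearson 95% interval of 19.8 to 70.1% that covers counting error only, and in 12 of 16 stage 3 cells (75.0%, 47.6 to 92.7%). Above 0.5 RPKM it was found in 1 and 6 cells.

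*Krt8* ranged from 0.00 through a median of 0.56 to 2.42 in stage 2 cells and from 0.00 through 0.60 to 2.53 in stage 3 cells. *Krt18* ranged from 0.04 through 0.28 to 2.35 in stage 2 and from 0.00 through 0.37 to 2.67 in stage 3. The differences were 0.03 for both, and the stages overlapped over nearly their whole range. High cells were present from 38 h on: *Krt8* was above 1 in 6 stage 2 and 4 stage 3 cells, *Krt18* in 6 and 5, and both together in 3 and 1. Neither was above 1 in 7 and 8 cells. In the cell populations collected in parallel at the same 4 times these genes were higher late in the course, *Krt8* from 3.47 and 6.83 FPKM at 38 and 60 h to 13.2 and 49.6 FPKM at 84 and 106 h, *Krt18* from 6.67 and 8.38 to 12.4 and 40.6, and *Sox1* from 2.85 and 3.96 to 11.4 and 39.5. FPKM is the same kind of measure as RPKM, counted over fragments. Each population is 1 sample of many cells, in which fewer cells of a type and less RNA per cell cannot be told apart.

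**Figure D1:**
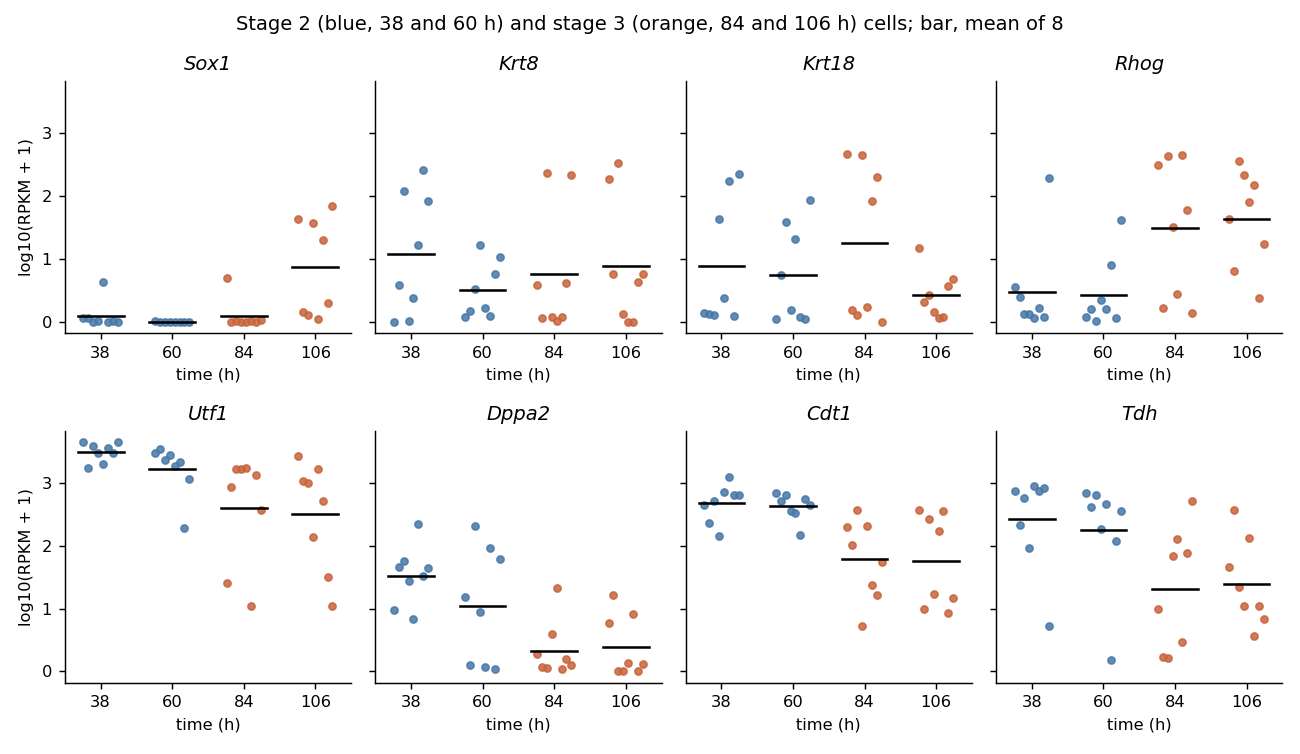
Values of 8 genes in each of the 32 cells, with time of induction in h on the x axis and log10(RPKM + 1) on the y axis; each point is 1 cell and each bar the mean of 8 cells. *Sox1* exceeds 1 only at 106 h, *Krt8* and *Krt18* hold cells above and below 1 at every time, *Rhog* is higher at 84 and 106 h, and *Utf1*, *Dppa2*, *Cdt1* and *Tdh* have lower means at 84 and 106 h, with more scatter in *Utf1* and *Cdt1*.

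Of the 15 stage markers used in the study, 2 were called, *Dnmt3b* and *Otx2*, both lower. The lower share was 13.3%, against 2.62% of all genes. *Nes*, which encodes the progenitor filament nestin, had time point means of 0.15, 0.18, 0.47 and 0.62 and a difference of 0.38, and was above 0.5 RPKM in 4 stage 2 and 10 stage 3 cells. *Pax6*, a transcription factor of neural progenitors, was above 0.5 RPKM in 0 of 16 stage 2 cells and 5 of 16 stage 3 cells, with a highest value of 2.02. *Zfp521*, *Zeb2* and *Six6* stayed near 0, with highest values over the 32 cells of 0.06, 0.36 and 0.01. *Tubb3*, a tubulin of neurons, had a difference of -0.03, and *Fgf5*, an epiblast growth factor, had means of 0.51, 0.46, 1.01 and 0.07 and so was highest at 84 h. *Klf4* and *Zfp42*, genes of naive pluripotency, differed by 0.15 and -0.23.

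The general pluripotency genes formed the list with the lowest median difference, -0.36, with 15 of 17 members below 0, 7 of 17 (41.2%) called lower against 2.62% of all genes, and 0 called higher. *Utf1* (chromosome 7, 147129688 to 147131011, plus strand, in NCBIM37, the mm9 build of the files), which encodes a chromatin factor of pluripotent cells, ran from 2.28 through 3.46 to 3.65 in stage 2 cells and from 1.03 through 2.97 to 3.43 in stage 3 cells. Its difference was -0.81. The stage 3 median lay within the range of stage 2, and both stage 3 time points held cells well below that range.

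*Dppa2*, whose product pairs with that of *Dppa4* on chromatin, had a median of 1.48 in stage 2 and 0.12 in stage 3 cells, with ranges of 0.04 to 2.35 and 0.00 to 1.33. *Dppa4* had medians of 1.79 and 0.87 and a difference of -0.76, beside -0.92 for *Dppa2*. Both were lower at 84 and 106 h, and both overlapped between the stages. *Trp53*, the stress-responsive transcription factor that the list also holds, differed by -0.69, from a stage 2 median of 2.49 to one of 1.69. *Pou5f1*, the core transcription factor of pluripotency, differed by -0.55, from 2.1 through 2.69 to 2.96 in stage 2 and from 1.00 through 2.32 to 2.92 in stage 3. *Mybl2* and *Zfp296* completed the 7, at -0.65 and -0.52. With RPKM averaged before the logarithm, *Dppa4*, *Utf1* and *Trp53* were at -0.49, -0.47 and -0.37, short of the size rule, and *Dppa2* was at -1.08.

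The remaining 2 of 17 were above 0, *Lin28a*, an RNA-binding protein of pluripotent cells and progenitors, at 0.33. Averaged over the 17 genes in each cell, the list ran from 1.23 through 1.46 to 1.75 in stage 2 and from 0.79 through 1.06 to 1.74 in stage 3, and 11 of 16 stage 3 cells lay below the lowest stage 2 cell. The naive pluripotency list had 1 of 18 members called lower (5.56%, against 2.62% of all genes), *Fgf4*, and a median of -0.10, and *Nanog*, a core pluripotency factor, was at 0.49 in the other direction. *Fgf4*, a growth factor secreted by pluripotent cells, had medians of 1.32 and 0.08, with nearly equal ranges of 0.01 to 1.86 and 0.00 to 1.82.

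Of 20 epiblast genes 5 were lower, *Otx2*, *Dnmt3b*, *Dnmt3a*, *Etv4* and *Etv5* (25%, against 2.62% of all genes), and 1 was higher, *Tead2* (5%, against 1.83%). *Dnmt3a* and *Dnmt3b* encode the enzymes that place DNA methylation anew. *Dnmt3a* had a stage 2 range of 0.58 to 1.59 with a median of 1.3, and a stage 3 range of 0.02 to 2.04 with a median of 0.27. *Dnmt3b* went from a median of 2.42 to one of 1.77, with means of 2.15, 2.44, 2.03 and 1.31. *Otx2*, a homeobox gene of the epiblast and anterior neural tissue, had means of 1.37, 1.64, 0.56 and 1.28, so that it was lowest at 84 h and only slightly below 38 h at 106 h. After centring within bins of GC and length, 3 of the 20 epiblast genes were called lower. With RPKM averaged before the logarithm, *Dnmt3a* was at -0.09, *Otx2* at -0.19, *Dnmt3b* at -0.41, *Etv5* at -0.479 and *Etv4* at -0.4996. All 5 thus fell short of the size rule, *Etv4* only just.

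Of 30 S phase genes, which act at the G1/S boundary and in DNA replication, 10 (33.3%, against 2.62% of all genes) were lower and 0 were higher. The median difference was -0.32, and 8 of the 30 were above 0. Of 38 genes of G2 and mitosis 0 were called in either direction and the median was 0.05. After centring within bins of GC and length, 8 of the 30 S phase genes were lower. Over all 30 members the S phase list had a median GC content of 48.6%, below that of all genes and of the lower genes. Among its called members, *Cdt1*, *Chaf1b*, *Ccne1* and *Mcm5* were at 58.8, 53.6, 52.7 and 52.1%, above the 50.9% of all genes. The other called members were not compared in this way.

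*Cdt1* (chromosome 8, 125091915 to 125097028, plus strand, NCBIM37), which loads the replicative helicase onto origins, ran from 2.15 through 2.72 to 3.09 in stage 2 cells and from 0.73 through 1.88 to 2.57 in stage 3 cells, a difference of -0.88. The stages overlapped only between 2.15 and 2.57. *Mcm5*, a subunit of that helicase, had ranges of 1.76 to 2.98 and 1.04 to 2.74 and a difference of -0.69. Its partners *Mcm2* and *Mcm6* differed by -0.58 and -0.54. *Ccne1*, the cyclin that drives entry into S phase, went from a median of 2.05 to one of 1.07, with a difference of -0.76 and stage 3 values from 0.17 to 2.65. *Chaf1b*, a subunit of the chromatin assembly factor at replication forks, differed by -0.77, but its highest value, 3.32, was in a stage 3 cell. With RPKM averaged before the logarithm, *Chaf1b* was at 0.07 and *Ccne1* at -0.32, short of the size rule, and *Cdt1* and *Mcm5* were at -0.58 and -0.51. *Pold3*, *Fen1*, *Rpa2* and *Ung*, which act in DNA synthesis and repair, differed by -0.60, -0.55, -0.55 and -0.52.

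*E2f1*, whose protein activates many replication genes, was also lower, with a difference of -0.55 and 10 stage 2 but 4 stage 3 cells above 0.5 RPKM. After centring within bins of GC and length the *E2f1* difference was -0.47, short of the size rule, and in the parallel populations it was 0.07. The list mean per cell ran from 1.29 through 1.54 to 1.79 in stage 2 and from 0.87 through 1.22 to 1.66 in stage 3, with 9 of 16 stage 3 cells below the lowest stage 2 cell. For the G2/M list the ranges were 0.79 to 1.26 and 0.68 to 1.38, and 3 stage 3 cells lay above and 1 below the stage 2 range. At 84 h the G2/M list had its highest median of the 4 times, 1.13, and at 106 h its lowest, 0.89. *Ube2c* and *Ccnb2*, mitotic genes with high levels, differed by -0.20 and 0.21.

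The promoters of *Mcm5* and *Mcm6* are shown because both genes were lower and both hold a motif of the E2F type, searched as TTTCCCGC, TTTGGCGC, TTTCGCGC or TTTGCCGC on either strand in the 250 bases before each RefSeq start. The letters are the 200 bases before the start in GRCm38.p6, from RefSeq, 5′ to 3′ on the strand of the gene, with matches in capitals. For *Mcm5* they are chr8:75109309-75109508 on the plus strand, with 2 overlapping matches, and for *Mcm6* chr1:128359706-128359905 on the minus strand, with 3 matches of which a pair overlaps.
Mcm5: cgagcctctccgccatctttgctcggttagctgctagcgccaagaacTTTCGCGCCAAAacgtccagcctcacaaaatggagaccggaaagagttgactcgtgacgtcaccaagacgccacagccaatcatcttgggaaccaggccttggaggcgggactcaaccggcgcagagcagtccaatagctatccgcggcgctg
Mcm6: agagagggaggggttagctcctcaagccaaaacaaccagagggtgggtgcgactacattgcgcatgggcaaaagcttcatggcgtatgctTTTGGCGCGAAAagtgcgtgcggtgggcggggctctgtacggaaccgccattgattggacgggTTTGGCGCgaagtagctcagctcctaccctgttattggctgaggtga
The motif was present for 7 of the 23 S phase genes with a promoter in the table (30.4%), for 1 of 35 G2/M genes (2.86%), for 4.21% of the 8121 measured genes with a promoter and in 1.86% of all 32851 promoter windows. Among S phase genes it was found in 2 of the 10 that were lower (20%) and in 5 of the 13 others with a promoter (38.5%). Over all called genes it was found in 12 of 227 lower (5.29%) and 5 of 144 higher genes (3.47%). A match is a description of these letters and not a site.

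**Figure D2:**
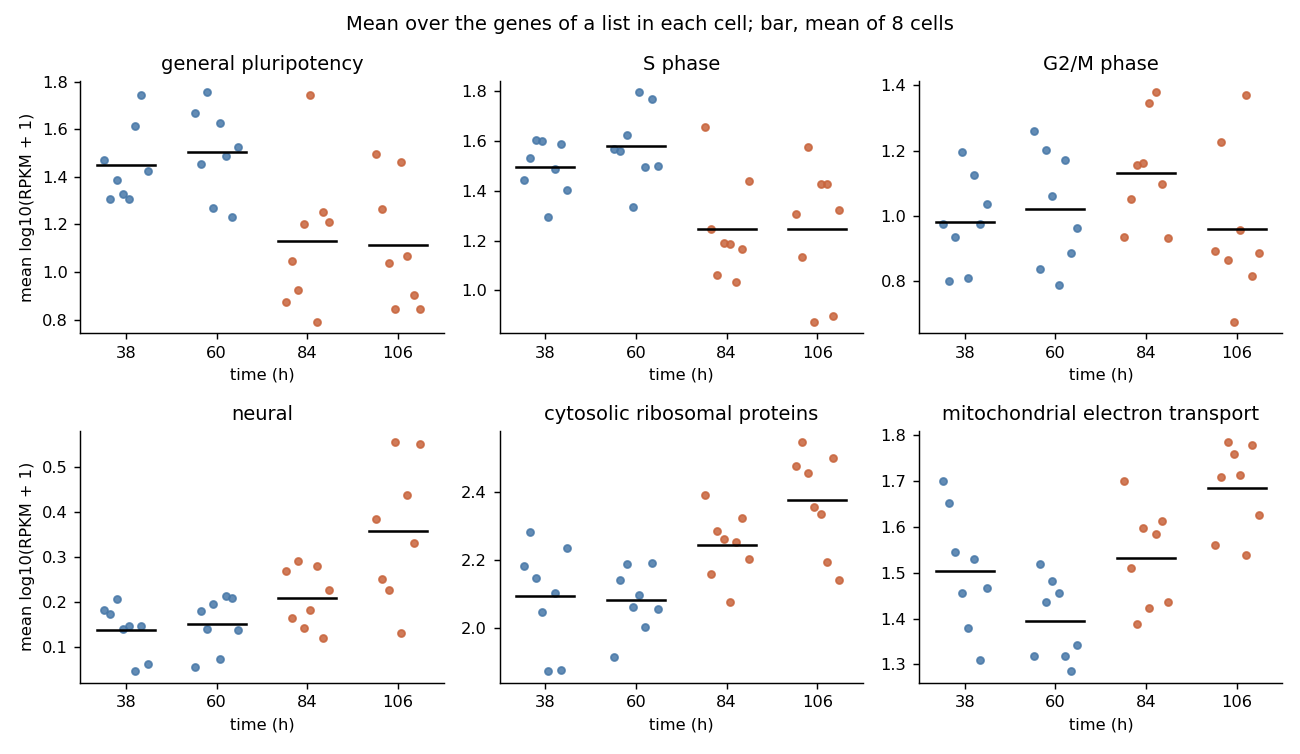
Mean log10(RPKM + 1) over the genes of 6 lists in each cell, by time in h; each point is 1 cell, each bar the mean of 8 cells, blue is stage 2 and orange stage 3, and the y axes differ between panels and do not start at 0. The general pluripotency and S phase lists drop at 84 h, the G2/M list overlaps throughout, and the neural, ribosomal and mitochondrial lists reach their highest medians at 106 h.

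Of 31 neural genes 0 were called, against 1.83% of all genes higher and 2.62% lower, shares at which a list of this size would hold few calls. Upward differences were found for 23 of 31, with a median of 0.07 against 0.00 over all genes. The list mean of 11 of 16 stage 3 cells was above that of the highest stage 2 cell. The list mean ran from 0.05 through 0.15 to 0.21 in stage 2 and from 0.12 through 0.26 to 0.55 in stage 3, with medians of 0.20 at 84 h and 0.36 at 106 h. *Vim*, a filament of progenitors and of mesenchymal cells, differed by 0.43 and *Crabp2*, a retinoic acid carrier, by 0.47. *Crabp2* was below the size rule, and its means were 0.30, 0.18, 0.08 and 1.34, and it was above 0 in all 8 cells of 106 h and in 4 of 8 at 84 h. *Crabp1*, its relative, had means of 0.76, 0.37, 0.55 and 1.75 and a difference of 0.58, and was not called because 84 h was below 38 h.

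Of the lists of markers of other cell types, the epithelial and surface ectoderm list had 2 of 20 genes called, *Epcam* lower at -0.81 and *S100a10*, a calcium-binding protein, higher at 0.51. That is 5% each way, against 2.62% of all genes lower and 1.83% higher, and *S100a10* was at 0.35 after centring within bins of GC and length. The trophoblast list had 4 of 10 genes measured and 0 called, the mesoderm and endoderm list 9 of 20 and 0, and the neuron list 13 of 16 and 0. Per-cell means of the trophoblast list were at most 0.50 in stage 2 and 0.30 in stage 3, and of the mesoderm and endoderm list at most 0.20 and 0.63. *T*, which encodes brachyury, was above 0.5 RPKM in 2 stage 2 and 5 stage 3 cells, with a highest value of 2.98 in stage 3. In the parallel populations of 38, 60, 84 and 106 h *T* was at 0.00, 1.69, 12.7 and 27.6 FPKM. The mesoderm and endoderm list had 7 genes measured there, with a median difference of 0.50. Of 10 fibroblast genes 1 (10%, against 2.62%) was called, *Fn1*, encoding fibronectin, which was lower by -0.54 and which embryonic cells also express. Their part in the differences above was not tested.

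In the Nodal pathway 2 of 15 genes (13.3%) were lower, against 2.62% of all genes, the secreted inhibitors *Lefty1* and *Lefty2*. *Lefty1* was widely spread, from 0.33 through 2.75 to 3.73 in stage 2 and from 0.23 through 1.32 to 3.83 in stage 3. *Lefty2* was narrower, with medians of 1.17 and 0.39 and a difference of -0.77. In the adherent monoculture, a culture of the cells on a coated surface, both were higher in stage 3, by 0.51 and 0.34 on the log10(FPKM + 1) scale. In the parallel populations of the same times the differences were -0.05 and 0.02, and in the first SFEB series -0.16 and -0.10.

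In the FGF pathway 3 of 20 (15%) were lower, against the same 2.62%, the ligand *Fgf4* and the transcription factors *Etv4* and *Etv5*, at -0.84, -0.55 and -0.56, and outside that list the MAP kinase phosphatase gene *Dusp9* was at -0.89, above 0.5 RPKM in 14 stage 2 and 2 stage 3 cells. After centring within bins of GC and length, *Etv4* and *Etv5* were at -0.496 and -0.482, both short of the size rule, and the FGF list had 1 gene lower and 2 higher. Averaging RPKM before the logarithm also left *Etv4* and *Etv5* short, at -0.4996 and -0.479, while *Fgf4* was at -0.52. In the BMP pathway 1 of 16 (6.25%, against 1.83% of all genes) was higher, the target *Id3*, with medians of 0.28 and 0.94 and a difference of 0.63. In the Wnt pathway 1 of 24 (4.17%) was higher, the ligand *Wnt8a*, whose means were 0.02, 0.23, 1.23 and 0.37, a peak at 84 h that the parallel populations also had, at 5.71, 20.8, 70.4 and 18.99 FPKM. None of 23 Notch, 14 retinoic acid and 12 Hedgehog genes was called. The medians of these 3 lists were 0.03, 0.11 and 0.00.

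Metabolic genes went both ways. *Slc2a3*, a glucose transporter, and *Aldoc*, an aldolase of glycolysis, were higher by 0.59 and 0.71, and *Slc16a3*, a lactate exporter, was lower by -0.73, of 22 glycolysis genes (9.09% higher and 4.55% lower, against 1.83 and 2.62% of all genes). *Aldoc* was high in the 106 h cells, with means of 0.45, 0.53, 0.64 and 1.77. *Tdh*, the enzyme that breaks down threonine in mouse embryonic stem cells, went from 0.18 through 2.64 to 2.95 in stage 2 to 0.22 through 1.20 to 2.71 in stage 3, a difference of -0.99. The low end of stage 2 was 1 cell at each of its time points, at 0.73 and 0.18, while every other stage 2 cell was above the stage 3 median. *Isyna1*, which makes inositol phosphate, was at -0.93. *Epcam*, an epithelial adhesion molecule, was at -0.81 with means of 2.13, 2.36, 1.88 and 0.99, and *Myc* was at -0.63, above 0.5 RPKM in 11 and 3 cells. Of 18 *Trp53* target genes *Perp* was higher by 0.69 and *Bax* lower by -0.56, or 5.56% each way, and after centring within bins of GC and length 3 were higher and 1 lower.

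Cytosolic ribosomal protein genes were higher in 12 of 77 cases (15.6%, against 1.83% of all genes), lower in 0, and the median difference was 0.19. *Rps27a* ran from 1.02 through 1.94 to 2.57 in stage 2 and from 2.12 through 2.54 to 2.74 in stage 3, and *Rpl39* from 0.05 through 0.52 to 1.04 and from 0.51 through 1.32 to 1.68. *Rpl36a* and *Rps28* differed by 0.68 and 0.59. Mitochondrial electron transport genes were higher in 4 of 41 (9.76%, against 1.83% of all genes), *Atp5j*, *Cox7a2*, *Cycs* and *Atp5e*, at 0.69, 0.57, 0.54 and 0.53, with a median of 0.21. These transcripts are short, with median lengths of 861 and 1079 bases. After centring within bins of GC and length, 2 ribosomal and 2 mitochondrial genes were among the 154 called higher and the medians were both 0.11, and in the parallel populations the medians were 0.05 and 0.03. Ribosomal protein genes have many near-identical copies in the genome, so their single values are uncertain.

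**Figure D3:**
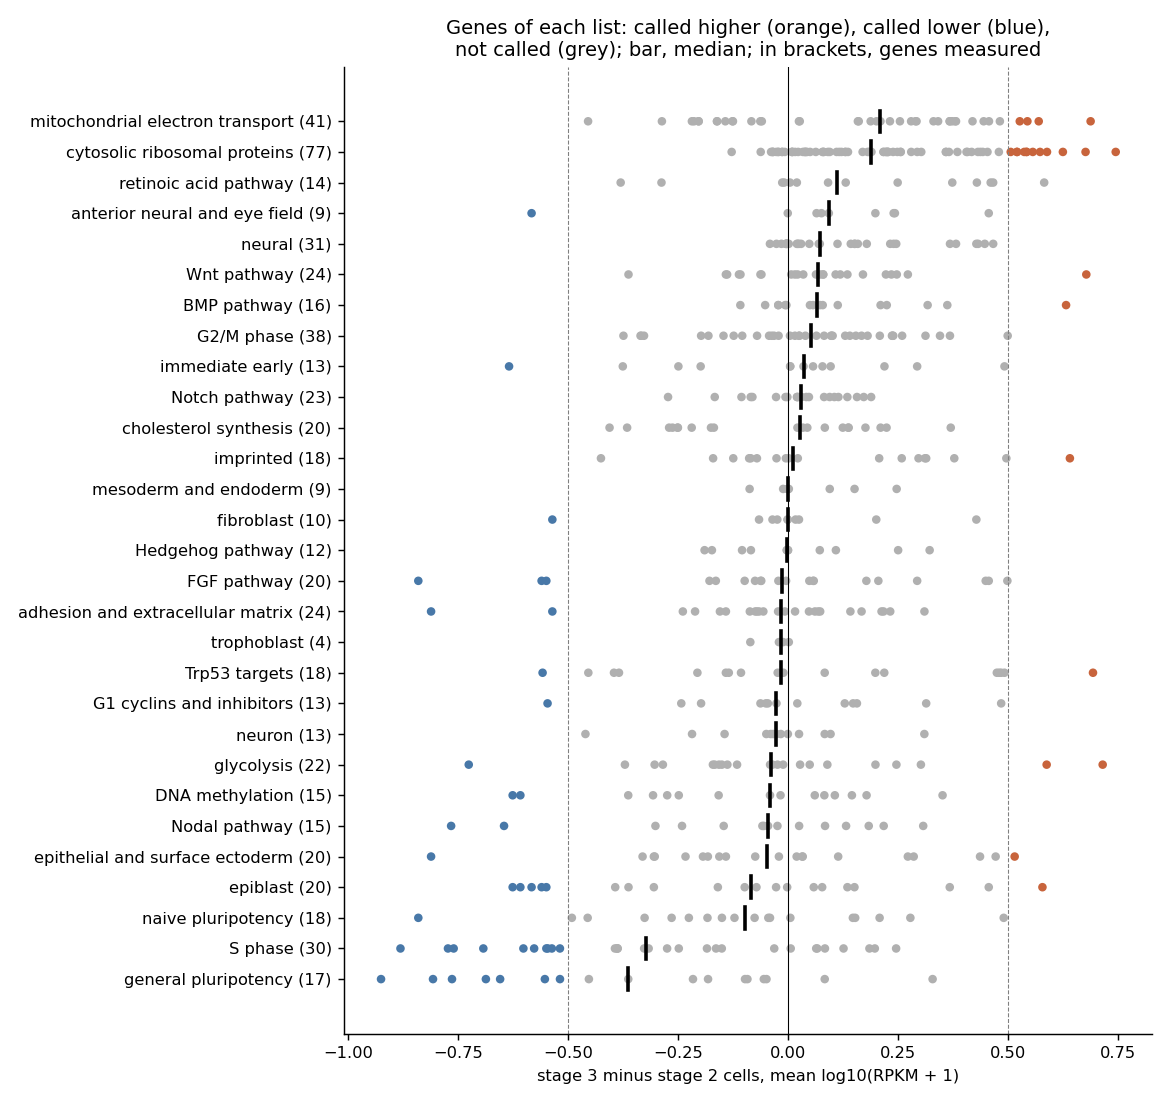
Difference between stage 3 and stage 2 cells in mean log10(RPKM + 1) on the x axis for every measured gene of 29 lists, with each list on a line of its own; points are genes, coloured where called, bars are medians and dashed lines mark the size rule of 0.5. The general pluripotency and S phase lists have the lowest medians (-0.36 and -0.32) and the ribosomal and mitochondrial lists the highest (0.19 and 0.21).

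Only 2 genes were higher by 1 or more. *Tpt1p* was at 0.48 in stage 2 and 1.81 in stage 3 in the mean, a difference of 1.33, while *Tpt1*, the gene of the translationally controlled tumour protein with which its name links it, was level at 2.50 and 2.51. Reads of near-identical copies cannot be told apart in such values, so *Tpt1p* is uncertain. *Rhog* (chromosome 7, 109387637 to 109398637, minus strand, NCBIM37), a small GTPase of the cytoskeleton, ran from 0.01 through 0.19 to 2.28 in stage 2 and from 0.14 through 1.71 to 2.66 in stage 3, a difference of 1.11. It was above 0.5 RPKM in 9 and 15 cells, and the highest stage 2 cell was above the stage 3 median.

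The other genes among the 15 largest positive differences had varied roles. *Tspan6*, a tetraspanin, was above 0.5 RPKM in 3 stage 2 and 12 stage 3 cells and differed by 0.91. *Cd24a*, a surface glycoprotein of neural and epithelial progenitors, differed by 0.85, with a stage 2 median of 0.90 and a stage 3 median of 2.08. *Tpm4*, *Sept9*, *Gabarap* and *Mff*, which act in actin filaments, septin filaments, autophagy and mitochondrial fission, differed by 0.84, 0.78, 0.79 and 0.83. *Eif3e*, a subunit of a translation initiation factor, differed by 0.87, *C1d*, a cofactor of the RNA exosome, by 0.86 and *Hnrnpa0*, an RNA-binding protein, by 0.80. *Ramp3*, a partner of the calcitonin-like receptor, *Esd*, an esterase, *Tspo*, a protein of the outer mitochondrial membrane, and *1700019E19Rik* followed at 0.80, 0.79, 0.78 and 0.85.

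Another 5 genes were lower by 1 or more. *Gdf1*, a ligand of the Nodal family, was the lowest at -1.14, with medians of 1.84 and 0.42, and it overlaps *Lass1* on the same strand, so that reads of the pair cannot be separated here. *Lass1* itself had means of 0.1 and 0.01. *Aspscr1*, a tether of glucose transporter vesicles, was at -1.11 and *Srrt*, a factor of RNA processing, at -1.04. *Ino80e*, a subunit of a chromatin remodeller, was at -1.04 and *Capns1*, the small calpain subunit, at -1.01. *Capns1* ran from 1.53 through 2.62 to 3.03 in stage 2 and from 0.86 through 1.34 to 2.70 in stage 3. The genes next in size included *Ccno*, a cyclin of multiciliated cells, *Noc4l*, of ribosome assembly, *Stoml1*, *Dcaf4*, *Dhrs7b* and *Ltbp4*, which binds latent TGF-beta, at -0.97, -0.95, -0.93, -0.93, -0.92 and -0.90.

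The called genes with the largest difference in the number of cells above 0 were mostly low in one of the stages. They were picked by this difference, so their counts describe them and test nothing. *Rhof*, a GTPase of filopodia, was above 0 in 5 of 16 stage 2 cells (31.2%) and in 15 of 16 stage 3 cells (93.8%). It was above 0.5 RPKM in 0 and 8. *Penk*, the precursor of enkephalin peptides, was above 0 in 5 and 15 cells and above 0.5 RPKM in 3 and 13. *Ndufa4l2* and *Gpx8* were above 0.5 RPKM in 2 stage 2 cells each and in 10 and 9 stage 3 cells. In the other direction *Fam178b* was above 0 in 12 and 2 cells and above 0.5 RPKM in 10 and 0. *Zp3*, a gene of the egg coat, was above 0 in 13 and 3 cells and above 0.5 RPKM in 8 and 1, and *Lgals9*, a galectin, in 13 and 5 and in 7 and 1. *1500002O20Rik* and *Gtsf1l* were both above 0 in 15 and 5 cells, and above 0.5 RPKM in 9 and 0 cells and in 11 and 4. In the parallel populations of 38, 60, 84 and 106 h *Rhof* was at 1.90, 2.13, 1.77 and 1.08 FPKM. That is a difference of -0.10, opposite in sign to the cells. The other genes of this paragraph had the same sign there as in the cells, *1500002O20Rik* by only -0.02. Over all called genes, 34 of 209 higher genes were above 0.5 RPKM in at most 4 stage 2 cells, and 40 of 300 lower genes in at most 4 stage 3 cells. How many of all genes were so low was not counted, so these shares cannot be called large or small.

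The scatter between cells of one time point differed with the genes compared. Over all 300 lower genes the SD was larger in stage 3 for 118 (39.3%), over all 209 higher genes for 158 (75.6%) and over all 11449 genes for 59.9%. Among the 1087 genes above 0.5 RPKM in all 32 cells, the order was the other way, with a larger SD in stage 3 for 64 of 76 lower genes (84.2%), 10 of 32 higher genes (31.2%) and 65.7% of the 1087. The other 224 lower genes, which reached 0.5 RPKM or less in at least 1 cell, had a larger SD in stage 3 in 54 cases (24.1%). For *Utf1* the SD was 0.15 and 0.41 at 38 and 60 h and 0.88 and 0.87 at 84 and 106 h, and for *Cdt1* 0.30, 0.22, 0.63 and 0.75. For *Ccno*, a lower gene that was near 0 in most stage 3 cells, it was 0.94, 0.96, 0.10 and 0.21, and for *Rps27a*, a higher gene, 0.43, 0.63, 0.20 and 0.19.

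The step across the stage boundary was not the largest of the 3 steps between adjacent times. Between 38 and 60 h 381 genes went up and 317 went down by at least 0.5 in the mean of 8 cells, 6.1% of all genes together. From 60 to 84 h 420 went up and 507 down (8.1%), and from 84 to 106 h 575 went up and 599 down (10.3%). Of the 209 higher genes, 105 passed 0.5 from 60 to 84 h alone and 30 went up by at least that much again to 106 h, while 9 went back. Of the 300 lower genes, 176 passed it from 60 to 84 h, 48 went further down and 8 came back. Cells were also less alike late in the course. The mean Pearson correlation across genes between 2 cells was 0.62 within 38 h, 0.64 within 60 h, 0.58 within 84 h and 0.54 within 106 h, beside 0.54 between cells of 84 and 106 h. The cells of 106 h also had the fewest genes above 0, and the part of depth in these counts and correlations was not tested.

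**Figure D4:**
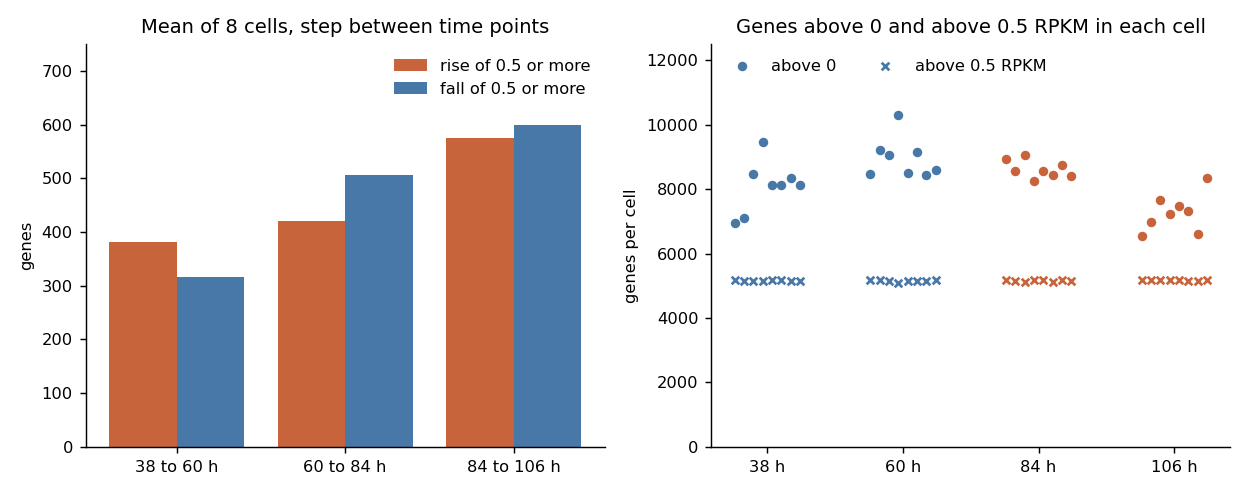
Left, genes whose mean over 8 cells went up or down by at least 0.5 on the log10(RPKM + 1) scale between adjacent times; right, genes above 0 (dots) and above 0.5 RPKM (crosses) in each cell, by time in h. The step from 84 to 106 h holds the most genes (575 and 599), and the 106 h cells have the fewest genes above 0.

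The cell populations sampled in parallel at 38, 60, 84 and 106 h gave fewer called genes, but the measure is not the same. A population value averages many cells before the logarithm and was corrected with ComBat, while a cell mean averages 8 values after the logarithm. Averaged before the logarithm, the cells gave 991 higher and 583 lower genes. By the same rule on log10(FPKM + 1), 65 of 13541 genes (0.48%) were higher and 5 (0.0369%) were lower in stage 3. Without the 106 h population the counts were 27 and 2, without 84 h 181 and 32, and without 60 h 105 and 51. Of the 65, 57 were measured in the cells, and 53 of these differed upwards there, with a median of 0.21 against 0.00 over all genes. In the cells 3 of the 57 (5.26%, against 1.83% of all genes) were called, namely *Id3*, *Wls* and *Mogat2*, named here after their values were seen. Of the 5 lower population genes 2 were measured in the cells, 1 with the same sign and 0 called. *Wls*, which carries Wnt proteins to the cell surface, was at 4.96, 8.38, 20.6 and 46.7 FPKM in the populations, and in the cells it was above 0.5 RPKM in 2 of 16 at stage 2 and 9 of 16 at stage 3.

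Among the population genes that were not called in the cells, 3 are given as examples. *Fabp7*, a lipid carrier of neural progenitors picked with *Hoxb2* and *Foxa2* after their values were seen, went from 0.00 and 0.44 FPKM to 10.4 and 19.1 FPKM in the populations, and was above 0.5 RPKM in 0 of 16 stage 2 and 8 of 16 stage 3 cells, with a difference of 0.45. *Hoxb2*, a homeobox gene of the hindbrain, went from 0.09 and 1.13 to 7.94 and 22.7 FPKM and from 1 to 9 cells, and *Foxa2*, of endoderm and floor plate, from 0.00 and 0.02 to 3.96 and 10.3 FPKM and from 0 to 4 cells. Over the 54 population genes not called in the cells, 44 had more cells above 0.5 RPKM in stage 3, 8 had equal numbers, 5 of them with none in either stage, and 2, *Krt8* and *Meis2*, had fewer. This tally was not made over all genes, so it has no background to be read against.

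Genes called in the cells mostly had small differences in the populations. Of the 208 higher genes measured in both, 162 (77.9%) differed upwards in the parallel populations, where 59.6% of all genes did, with a median of 0.08. Of 300 lower genes, 234 (78.0%) differed downwards, against 40.3% of all genes, with a median of -0.07. In the first SFEB series, set as 34 to 68 h for stage 2 against 80 to 103 h for stage 3, the shares were 69.2 and 82.3%, against 53.3 and 46.7% of all genes, and in the adherent monoculture, set as 35.5 to 68.5 h against 80.5 to 101.5 h, 79.3 and 80.0%, against 59.6 and 40.4%. In all 3 sets together, 121 of 208 higher genes (58.2%) were higher, against 39.6% of the genes measured in all, and 194 of 300 lower genes (64.7%) were lower, against 22.8%. *Dppa2* and *Ccno* were lower in both measurements, by -0.92 and -0.97 in the cells and by -0.48 and -0.47 in the populations. *Cdt1* was lower by -0.88 in the cells and by -0.05 in the populations, and the S phase list as a whole had a median of -0.04 there.

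**Figure D5:**
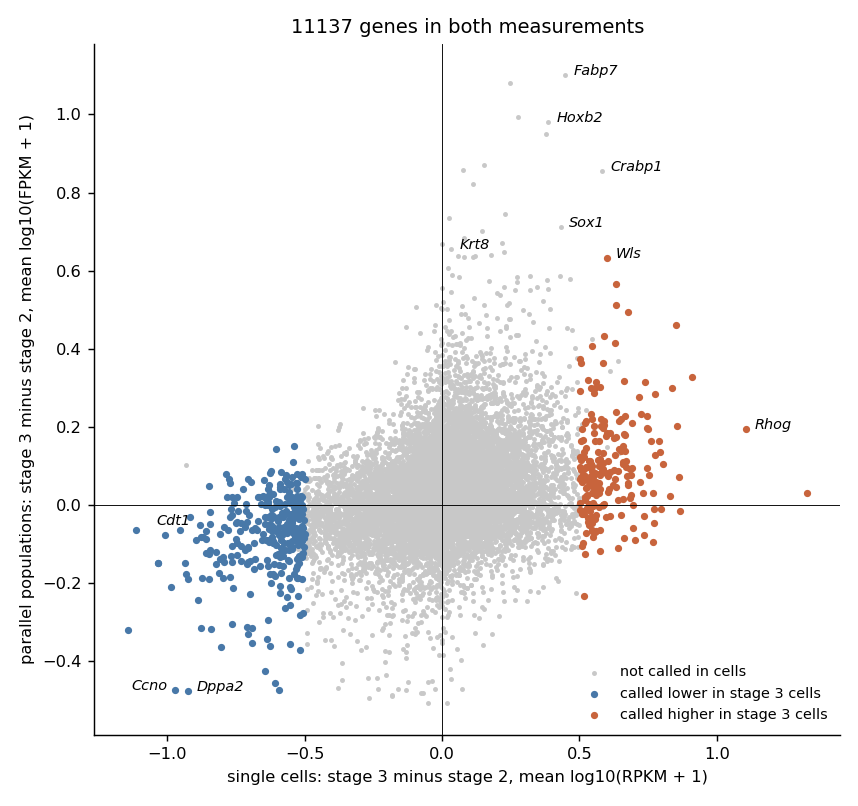
Stage 3 minus stage 2 in the single cells (x axis, mean log10(RPKM + 1)) against the parallel populations (y axis, mean log10(FPKM + 1)) for 11137 genes in both; each point is a gene, coloured where called in the cells, and 10 genes are labelled. The lower genes have a median of -0.07 on the y axis, while *Fabp7*, *Hoxb2*, *Crabp1* and *Sox1*, higher in the stage 3 populations, were not called in the cells.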

How the data were processed

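For single cells, the authors normalized RPKM by quantiles between cells, kept genes above 0.5 RPKM in at least 8 of 64 cells and deposited log10 of RPKM + 1. Population FPKM was deposited by the authors after ComBat batch correction (13541 genes), and 1256 values below 0 were set to 0. Adherent monoculture FPKM was used as deposited by the authors. Submitters' processing notes name TopHat2 2.0.8b, Cufflinks 2.1.1 and mm9, and the study's methods name earlier versions of both tools. The study states a minimum of reads per library; exact totals per cell were not used here, and genes above 0 stood in for depth.

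Stage means, differences and shares were computed in Python 3.11.15 with pandas 2.3.3, numpy 2.4.6, scipy 1.17.1 and matplotlib 3.10.9, and tested on simulated data. Members and gene lists were chosen with earlier results of these data known. Named genes were the stage markers, the 15 largest rises and 15 largest falls among called genes, up to 4 called genes each way from each list (2 with the highest mean where none was called), and the 5 called genes each way with the largest change in cells above 0. *Pou5f1*, *Mybl2*, *Zfp296*, *Lin28a*, *Nanog*, *Mcm2*, *Mcm6*, *Pold3*, *Fen1*, *Rpa2*, *Ung*, *Crabp2*, *Tpt1* and *Lass1* fall outside this rule and were chosen after their values were seen, as were 5 population genes marked in the text. Gene positions, GC and length came from GENCODE M1 (11112 of 11449 genes matched by symbol, longest coding transcript, 20 bins for the centring). The 12 samples of E14 and Fyn-KO cells were not used here.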

Additional observations from a re-analysis of the deposited data

Results flagged for a closer look

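Per-cell values of 31 lists and the number of genes above 0 were screened within each time point of 8 cells, 128 groups in all, for a cell whose gap to its nearest neighbour was large against the whole range (Dixon's 95% value for 8). Chance alone marks about 1 group in 20, and 9 cells were marked. At 60 h 1 cell had 10292 genes above 0, where the other 7 had 8422 to 9211. At 38 h a cell stood at 0.29 in the trophoblast list, with the others at 0.00 to 0.05, another at 0.63 in the neuron list, with the others at 0.26 to 0.36, and another at 0.97 in the immediate early list, with the others at 0.23 to 0.54. At 84 h a cell stood at 0.63 in the mesoderm and endoderm list (others 0.00 to 0.21), another at 0.28 in the FGF list (others 0.53 to 0.72) and another at 0.26 in the adhesion and extracellular matrix list (others 0.35 to 0.43). At 106 h a cell stood at 0.93 in the neuron list (others 0.16 to 0.45) and another at 0.19 in the adhesion and extracellular matrix list (others 0.34 to 0.47). No cell was left out for this.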

How the results depend on the processing

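The size rule decided the counts in stage 3 cells. With 0.3 in place of 0.5, 774 genes were higher and 924 lower, and with 1, 2 and 5. Averaging RPKM before the logarithm gave 991 and 583, a pseudocount of 0.1 gave 688 and 767, 84 h against 60 h alone gave 420 and 507, and the median over cells gave 299 higher and 639 lower. Leaving out 1 time point gave 297 to 589 higher and 338 to 630 lower genes: without 38 h 342 and 517, without 60 h 297 and 446, without 84 h 589 and 630, without 106 h 334 and 338, of which 104 and 175 were among the 209 and 300. Fewer time points have to be separated in these settings. Without the separation of time points, with a filter on cells above 0, or centred within bins of GC and length, the counts stayed within 1.5 times. Keeping an equal number of genes above 0 in each cell removes only values near 0, so that its small effect says nothing about depth. In the parallel populations a pseudocount of 0.1 gave 260 higher and 44 lower, and leaving out 1 time point gave 27 to 181 higher and 2 to 51 lower, with 44 higher without 38 h, 105 and 51 without 60 h, 181 and 32 without 84 h and 27 and 2 without 106 h. The share of higher genes moving the same way was 69.2% in the first SFEB series in place of 77.9%. Of 76 called genes named by the rule, *Chaf1b* alone changed sign under one of the alternatives, to 0.0724 when RPKM was averaged before the logarithm, and the cause was not tested. The same averaging left 15 of the 41 lower genes named, *Chaf1b* included, short of 0.5, among them *Utf1* (-0.47), *Trp53* (-0.37), *Ccne1* (-0.32), *Epcam* (-0.37), *Lefty1* (-0.22) and *Fn1* (-0.21), and of the higher genes *Eif3e* (0.34) and *Rps27a* (0.42). Median differences of the general pluripotency list stayed between -0.50 and -0.23 and of the S phase list between -0.39 and -0.19 over 11 alternatives. The G2/M list ran from -0.07 to 0.18, the neural list from 0.00 to 0.20, the mitochondrial list from 0.09 to 0.34 and the ribosomal list from 0.11 to 0.24. Centring within bins of GC and length, the settings for adjacent steps and the scatter over all called genes were chosen after seeing the data. No paired analysis was possible because cells of different times share only a running number. With 8 cells per time point and 1 sample each, the spread between cultures of a time point is unknown.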
